A study of Mus musculus with 4 samples.

Results

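NANOG occupancy was examined around 3 genes of the fibroblast growth factor (FGF) and ERK pathway, Fgf4, Fgf5 and Dusp6, in mouse embryonic stem cells (ESCs) with and without acute loss of OCT4. Members were chosen by position alone: every NANOG window with its centre within 100 kb of the gene body was taken. This gave 13 of the 21066 windows in the data, of which 8 belonged to Fgf4, 2 to Fgf5 and 3 to Dusp6. Each window was 351 bp wide and centred on the summit of a NANOG peak. A window was called bound where its condition value reached 0.9 RPKM (reads scaled to the window's length and the library's total) in either condition, which held for 12 of the 13 members and for 16608 windows in all. All 12 reached 0.9 RPKM in uninduced cells, so 0 of them passed this threshold only through their IAA value. The peaks themselves were called on both conditions pooled. It is therefore not shown that each window would be a peak from uninduced reads alone.

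The cells were ZHBT-O4AID ESCs of strain 129SV, and both groups carried the same alleles: Oct4-/- with a TetOFF Oct4 transgene, CAG Oct4AID and CAG Tir1. The endogenous Oct4 gene is inactive, the tetracycline-controlled wild-type transgene was kept silent with doxycycline in both groups, and OCT4 came from the ubiquitous CAG promoter fused to the auxin-inducible degron, a tag that has the protein destroyed through the TIR1 adaptor once indole-3-acetic acid (IAA) is given. The 2 uninduced libraries came from cells without IAA and the 2 IAA libraries from cells given 500 μM IAA for 1.5 h, and the comparison asks what happens to NANOG binding within that time. Both groups grew in N2B27 with LIF, the GSK3 inhibitor Chiron and the MEK inhibitor PD03, so MEK, the kinase directly above ERK, was inhibited in every sample. The libraries do not measure the OCT4 protein itself, and no library of cells without the degron given IAA was used here.

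FGF ligands bind receptor tyrosine kinases at the cell surface, and the signal passes through adaptors, RAS and a chain of kinases that ends in MEK and ERK. FGF4 is the main ligand that ESCs make for themselves, and its signal moves them away from the naive state towards differentiation. FGF5 is a ligand best known as a marker of the epiblast that has left the naive state. DUSP6 is a phosphatase that removes phosphate from ERK, and its gene is switched on by ERK, so it acts as a negative feedback. Fgf4 is also a textbook target of OCT4 with SOX2, through an enhancer in its 3′ untranslated region (UTR).

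The 8 Fgf4 windows lay on chromosome 7 (GRCm38, the build of the files), where the gene body runs from 144861386 to 144865244 on the plus strand. Fgf5 runs from 98254184 to 98277033 on chromosome 5 and Dusp6 from 99263231 to 99267489 on chromosome 10. Windows are named here by the distance of their centre from the gene start. Sequences are shown for the windows that carried the results: the window with the most NANOG signal at Fgf4, the 3′ UTR window with its composite site, the other Fgf4 window that passed the test, and the strongest windows of Dusp6 and Fgf5. All are the plus strand of GRCm38 from RefSeq, 5′ to 3′, and capitals mark motif matches on either strand.

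The Fgf4 +27.9 kb window (shown chr7:144889093-144889392) lies between Fgf4 and Fgf15, and capitals mark its 3 matches to the SOX motif ACAANG. The window held no match to the octamer motif ATGCNAAT that OCT4 binds.
Fgf4 +27.9 kb: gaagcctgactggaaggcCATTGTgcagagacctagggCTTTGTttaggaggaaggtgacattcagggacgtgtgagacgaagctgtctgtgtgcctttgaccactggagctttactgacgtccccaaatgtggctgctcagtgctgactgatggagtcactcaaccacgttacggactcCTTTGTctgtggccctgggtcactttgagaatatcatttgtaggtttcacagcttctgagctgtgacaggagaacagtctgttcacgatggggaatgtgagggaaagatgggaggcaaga

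The Fgf4 +3.0 kb window holds, in the 3′ UTR, a SOX motif followed within 4 bases by an octamer (shown chr7:144864388-144864417). Capitals mark this composite, which lay 12 bases from the window centre. A NANOG core TAATGG also matched there, overlapping the end of the octamer.
Fgf4 +3.0 kb: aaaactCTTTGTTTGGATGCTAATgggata

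The Fgf4 +17.0 kb window (shown chr7:144878411-144878470) had 2 matches to TAATGG that face each other on opposite strands, and capitals mark both.
Fgf4 +17.0 kb: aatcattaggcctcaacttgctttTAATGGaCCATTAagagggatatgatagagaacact

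The Dusp6 +2.3 kb window (shown chr10:99265376-99265635) lies in an intron of Dusp6, and capitals mark 3 SOX matches and 1 TAATGG, which lay 10 bases from the centre.
Dusp6 +2.3 kb: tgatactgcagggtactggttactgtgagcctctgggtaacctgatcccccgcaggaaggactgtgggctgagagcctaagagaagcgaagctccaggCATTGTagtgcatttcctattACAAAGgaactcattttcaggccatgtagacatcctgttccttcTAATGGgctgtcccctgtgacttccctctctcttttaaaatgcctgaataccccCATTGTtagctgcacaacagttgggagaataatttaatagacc

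The Fgf5 +1.7 kb window (shown chr5:98255844-98255994) lies in an intron of Fgf5, and none of the 6 motifs searched matched anywhere in it.
Fgf5 +1.7 kb: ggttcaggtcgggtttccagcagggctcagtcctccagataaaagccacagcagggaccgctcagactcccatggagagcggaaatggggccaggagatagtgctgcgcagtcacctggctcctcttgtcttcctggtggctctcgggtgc

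The 4 libraries held between 5406307 and 19634763 reads, so 1 read was worth between 0.145 and 0.527 RPKM, and weak windows rest on few reads. The median bound window held 6 reads in uninduced replicate 1 and 8 in IAA replicate 2, the shallowest library. It held 12 in uninduced replicate 2 and 27 in IAA replicate 1. The values were not scaled to added chromatin, and the 2 IAA libraries had more of their reads in bound windows (3.05% and 3.24%) than the 2 uninduced libraries (1.60% and 2.28%). On the log2(RPKM + 0.1) scale used for all changes, which understates those of low windows, the library medians over bound windows were 1.12 and 1.60 without IAA and 2.01 and 2.11 with it, a shift of 0.70 between the group means. Whether this shift is binding or the efficiency of the immunoprecipitation cannot be told apart in these values, so each change is given as measured and, where it matters, after centring every library on its median.

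Over the 4 libraries, the strongest NANOG window near the 3 genes was Fgf4 +27.9 kb (chr7:144889067-144889417), 23998 bp past the end of Fgf4 and 7289 bp from the nearest start of Fgf15, which encodes another FGF ligand. It lay within 1 kb of an OCT4 site and belonged to none of the promoter, enhancer or repressed classes of the authors. Its signal was 6.92 and 8.30 RPKM in the uninduced libraries (replicates 1 and 2) and 25.1 and 32.7 RPKM in the IAA libraries. These values rest on 20, 34, 173 and 62 reads in the same order. Both IAA values lay above both uninduced values, by more than the replicates of either group differed.

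The mean at Fgf4 +27.9 kb was 7.61 ± 0.975 RPKM in uninduced cells and 28.9 ± 5.35 RPKM after IAA (SD, n = 2 each), a ratio of 3.80. The log2 change was 1.90 ± 0.43 (SE; 95% interval 1.06 to 2.75), and limma, fitted over all 16608 bound windows with Benjamini-Hochberg adjustment, gave adjusted p = 0.00207. The 4 pairings of an IAA with an uninduced library gave changes from 1.59 to 2.22, while the 2 uninduced libraries differed by 0.26 and the 2 IAA libraries by 0.38. By the size of its change the window ranked 579 of all 16608 bound windows, but 46 of the 3930 bound windows with an OCT4 site within 1 kb. By mean RPKM it ranked 230 and 128 in these sets.

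The median change of bound windows near an OCT4 site was 0.39, against 0.86 for the other bound windows, a difference not tested here, and limma called 263 of the 3930 (6.69%) higher and 45 lower, next to 2493 (15.0%) and 56 of all bound windows. After centring on the library medians the change at Fgf4 +27.9 kb was 1.21, with a limma adjusted p of 0.0155. It was then 1 of 3 windows with an OCT4 site that passed the test upwards, while 167 of the 3930 passed it downwards. Under quantile normalization the change was 1.20 and its limma adjusted p 0.0704, and without a variance trend the limma adjusted p was 0.0541. Without IAA replicate 1 the change was 2.09, and without IAA replicate 2 it was 1.72. With a lone IAA library the spread within that group is not measured, so these fits cannot decide whether the call depends on either library.

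**Figure D1:**
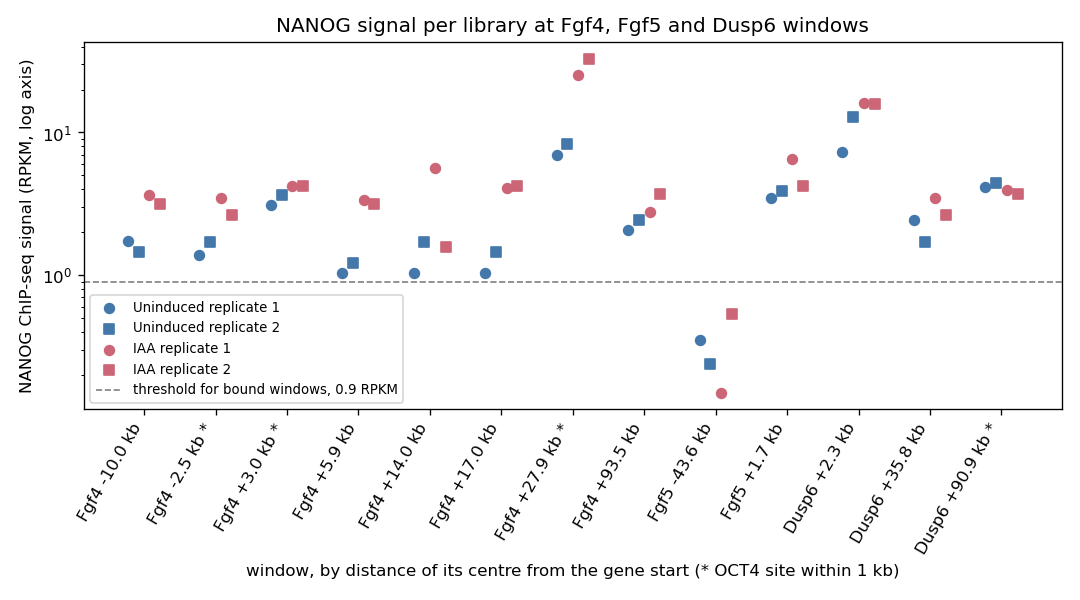
NANOG signal in RPKM on a log axis for each of the 13 windows, with circles and squares for replicates 1 and 2, blue for uninduced and red for IAA libraries, and a dashed line at 0.9 RPKM. At Fgf4 +27.9 kb the IAA libraries sit at 25.1 and 32.7 RPKM, above the uninduced libraries at 6.92 and 8.30, and at Dusp6 +90.9 kb both IAA libraries sit just below both uninduced ones.

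The other window of the 3 genes that passed the test was Fgf4 +17.0 kb (chr7:144878214-144878564), intergenic, 13145 bp past the gene end and in none of the annotated classes. Its signal was 1.04 and 1.46 RPKM without IAA, against 4.06 and 4.22 RPKM with it. Both IAA values were higher, but they rest on few reads (3, 6, 28 and 8 reads in the same order). The mean was 1.25 ± 0.302 RPKM in uninduced cells and 4.14 ± 0.108 RPKM after IAA (SD, n = 2 each). The log2 change was 1.67 ± 0.58 (SE), with a limma adjusted p of 0.0351. After centring it was 0.97 with a limma adjusted p of 0.366, and under quantile normalization 0.868 with a limma adjusted p of 0.367. Without a variance trend the limma adjusted p was 0.0650, so the call was lost under each of these settings. The change was 1.44 without uninduced replicate 1 and 1.90 without uninduced replicate 2. It was 1.69 without IAA replicate 1 and 1.64 without IAA replicate 2.

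In all, 2 of the 12 bound members (16.7%) were called higher by limma, next to 15.0% of all bound windows, and both belonged to Fgf4. Limma called 0 of the 12 lower, next to 0.337% of all bound windows. At an unadjusted p under 0.05 the counts were 3 higher (25.0%) and 0 lower, next to 33.1% and 0.861% of all bound windows, and limma-voom on the recovered reads gave 2 higher and 0 lower. The 2 IAA values exceeded both uninduced ones at 10 of the 12 members (83.3%), next to 60.5% of all bound windows, and lay below both at 1 member (8.33%), next to 4.23%. The median change of the 12 was 0.82 against 0.76 over all bound windows, and 6 of the 12 lay above that median.

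The remaining 6 Fgf4 windows did not pass the test. Closest to the gene, Fgf4 +3.0 kb (chr7:144864215-144864565) lies in the 3′ UTR of Fgf4, within 1 kb of an OCT4 site, and in the enhancer class of the authors, who required P300 and acetylated H3K27 nearby. This is the window with the composite SOX and octamer site printed above. Its signal was 3.11 and 3.66 RPKM without IAA, against 4.21 and 4.22 RPKM with it, from 9, 15, 29 and 8 reads. The groups did not overlap, but the log2 change of 0.31 ± 0.48 (SE; 95% interval -0.63 to 1.25) had a limma adjusted p of 0.651, and after centring it turned to -0.39.

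Fgf4 +3.0 kb was thus the Fgf4 window with the most signal in uninduced cells after Fgf4 +27.9 kb, at 3.39 ± 0.387 RPKM (SD, n = 2), and the one with the smallest change. Both have an OCT4 site within 1 kb, and the difference between their changes was not tested.

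Downstream, Fgf4 +5.9 kb (chr7:144867152-144867502) is intergenic, 2083 bp past the gene end, and in both the promoter and the enhancer class, with no OCT4 site within 1 kb. Its signal was 1.04 and 1.22 RPKM without IAA, against 3.34 and 3.16 RPKM with it, from 3, 5, 23 and 6 reads. The groups were well apart, and the log2 change of 1.45 ± 0.62 (SE) had a limma adjusted p of 0.0841. After centring the change was 0.752, with a limma adjusted p of 0.543. It was 1.56 without uninduced replicate 2 and 1.343 without uninduced replicate 1.

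Fgf4 +14.0 kb (chr7:144875168-144875518), intergenic and in none of the classes, was the Fgf4 window whose replicates agreed least. Its signal was 1.04 and 1.71 RPKM in uninduced cells, 5.66 RPKM in IAA replicate 1 and 1.58 RPKM in IAA replicate 2, the last from 3 reads. The groups overlapped, and the log2 change of 1.12 ± 0.61 (SE) had a limma adjusted p of 0.174.

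Upstream, Fgf4 -2.5 kb (chr7:144858683-144859033) and Fgf4 -10.0 kb (chr7:144851203-144851553) fall in an intron of a longer annotated Fgf4 transcript. Fgf4 -2.5 kb had an OCT4 site within 1 kb and was in the promoter and enhancer classes. Its signal was 1.38 and 1.71 RPKM without IAA, against 3.48 and 2.63 RPKM with it, with a log2 change of 0.93 ± 0.59 (SE) and a limma adjusted p of 0.243. Fgf4 -10.0 kb, with none of the flags, had 1.73 and 1.46 RPKM without IAA, against 3.63 and 3.16 RPKM with it, with a log2 change of 1.04 ± 0.57 (SE) and a limma adjusted p of 0.179. In both windows the IAA values lay above the uninduced ones, but they rest on few reads. These were 4, 7, 24 and 5 at Fgf4 -2.5 kb and 5, 6, 25 and 6 at Fgf4 -10.0 kb, with the uninduced libraries first. After centring the changes were 0.236 (limma adjusted p = 0.871) and 0.345 (limma adjusted p = 0.794). Fgf4 -10.0 kb was the only member with the motif TCAAGGTCA of the nuclear receptor ESRRB, 2 bases from its centre.

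The last Fgf4 window, Fgf4 +93.5 kb (chr7:144954714-144955064), stood 65.3 kb beyond the others and 14964 bp from the nearest start of Ccnd1, the gene of cyclin D1. Its signal was 2.08 and 2.44 RPKM without IAA, against 2.76 and 3.69 RPKM with it, with a log2 change of 0.49 ± 0.54 (SE), a limma adjusted p of 0.521, and -0.21 after centring.

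The other 7 Fgf4 windows lay within 38.2 kb. Each Fgf4 window had 6 or 7 other bound windows within 100 kb, against a median of 2 over all bound windows, and 13.6% of bound windows had 6 or more. Such windows share a locus and are not replicates of the treatment.

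**Figure D2:**
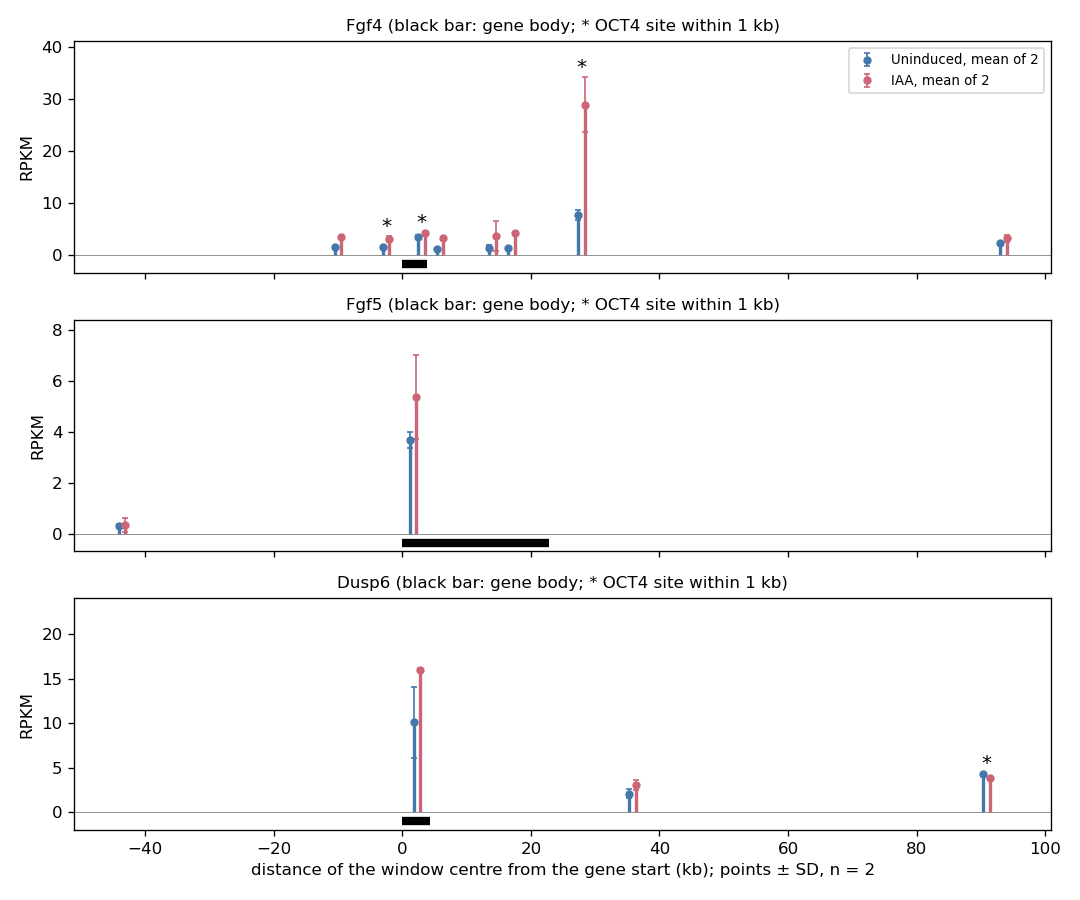
Mean NANOG signal in RPKM (points, with SD of 2 libraries) against the distance in kb of each window centre from the gene start, for Fgf4, Fgf5 and Dusp6, with uninduced in blue, IAA in red, gene bodies as black bars and asterisks for an OCT4 site within 1 kb. At Fgf4 the window at 27.9 kb reaches 28.9 RPKM after IAA while the other 7 reach at most 4.21 RPKM, and at Dusp6 the intronic window at 2.3 kb stands above the 2 distal ones.

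Summed over the 8 windows, the NANOG signal of the Fgf4 locus was 18.3 and 22.0 RPKM without IAA, against 52.2 and 55.3 RPKM with it. The means were 20.1 ± 2.57 and 53.8 ± 2.19 RPKM (SD, n = 2 each), a ratio of 2.67. The exact permutation test of 2 against 2 libraries gave p = 0.33, the smallest it can give. Without Fgf4 +27.9 kb the sums were 11.4, 13.7, 27.1 and 22.7 RPKM, with the 2 uninduced libraries first, and the log2 difference was 0.99 in place of 1.42. After centring, the log2 difference over all 8 windows was 0.72.

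The share of the reads of the locus at Fgf4 +27.9 kb was compared between libraries. The window held 20 of 53 reads in uninduced replicate 1 (37.7%, 95% Wilson interval 25.9 to 51.2) and 34 of 90 in uninduced replicate 2 (37.8%, 28.5 to 48.1). It held 173 of 360 reads in IAA replicate 1 (48.1%, 42.9 to 53.2) and 62 of 105 in IAA replicate 2 (59.0%, 49.5 to 68.0). This share does not depend on the scaling of a library, and the intervals cover counting error only. It may still depend on the efficiency of the immunoprecipitation, which was not tested. The window was also picked as the strongest in these same libraries. Both IAA shares were higher, by 15.8 percentage points between the means, but the interval of IAA replicate 1 overlapped those of both uninduced libraries, that of IAA replicate 2 overlapped that of uninduced replicate 1, and the exact permutation test gave p = 0.33, the smallest it can give.

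At Dusp6, the intronic window Dusp6 +2.3 kb (chr10:99265376-99265726) was the strongest member in uninduced cells. It lies inside the gene, 90 bp from an internal annotated transcript start, with no OCT4 site within 1 kb and in none of the classes. Its signal was 7.26 RPKM in uninduced replicate 1, 12.9 RPKM in uninduced replicate 2, and 16.1 and 15.8 RPKM in IAA replicates 1 and 2, from 21, 53, 111 and 30 reads. The IAA libraries lay close together and the uninduced ones far apart, so that the gap between the uninduced replicates was larger than that from uninduced replicate 2 to either IAA library.

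The means at Dusp6 +2.3 kb were 10.1 ± 4.01 RPKM in uninduced cells and 16.0 ± 0.210 RPKM after IAA (SD, n = 2 each). The log2 change was 0.71 ± 0.43 (SE; 95% interval -0.12 to 1.55), with a limma adjusted p of 0.217, and 0.02 after centring. Among the alternatives that kept all 4 libraries it never passed the test. The change was 1.13 without uninduced replicate 2 and 0.301 without uninduced replicate 1. These 2 libraries also differed over all bound windows, with medians of 1.60 in uninduced replicate 2 and 1.12 in uninduced replicate 1.

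The 2 distal Dusp6 windows overlap exons of the non-coding RNA gene B530045E10Rik. Dusp6 +35.8 kb (chr10:99298883-99299233), 108 bp from a start of that gene and in none of the classes, had 2.42 and 1.71 RPKM without IAA, against 3.48 and 2.63 RPKM with it. Its log2 change was 0.55 ± 0.56 (SE), with a limma adjusted p of 0.475, and -0.15 after centring. Dusp6 +90.9 kb (chr10:99353934-99354284), within 1 kb of an OCT4 site and in the enhancer class, had 4.15 and 4.39 RPKM without IAA, against 3.92 and 3.69 RPKM with it, from 12, 18, 27 and 7 reads. It was the only one of the 12 bound members at which both IAA libraries lay below both uninduced ones. Its log2 change was -0.16 ± 0.47 (SE; 95% interval -1.09 to 0.76), with a limma adjusted p of 0.814, and -0.86 with a limma adjusted p of 0.249 after centring.

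The sum over the 3 Dusp6 windows was 13.8 and 19.0 RPKM without IAA, against 23.5 and 22.1 RPKM with it. The means were 16.4 ± 3.68 and 22.8 ± 0.971 RPKM (SD, n = 2 each; exact permutation test, p = 0.33, the smallest it can give). The log2 difference of 0.49 turned to -0.21 after centring.

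Fgf5 had NANOG signal at a lone bound window. Fgf5 +1.7 kb (chr5:98255744-98256094) lies in an intron, 1507 bp from the nearest transcript start, with no OCT4 site within 1 kb and in none of the classes, and no other bound window lay within 100 kb of it. Its signal was 3.46 and 3.90 RPKM without IAA, against 6.53 and 4.22 RPKM with it, from 10, 16, 45 and 8 reads. IAA replicate 1 was high and IAA replicate 2 close to the uninduced values. The log2 change was 0.50 ± 0.46 (SE; 95% interval -0.40 to 1.41), with a limma adjusted p of 0.430, and -0.20 after centring.

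The other Fgf5 window, Fgf5 -43.6 kb (chr5:98210377-98210727), was the member below 0.9 RPKM. It was listed at 1 read in every library, the lowest value the files hold, where 0 reads cannot be told from 1, so no change can be read there. It was in the repressed class of the authors, marked by methylated H3K9 or H3K27. Among all 4458 windows under 0.9 RPKM, 49.5% were in that class and 58.6% were at 1 read in every library.

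**Figure D3:**
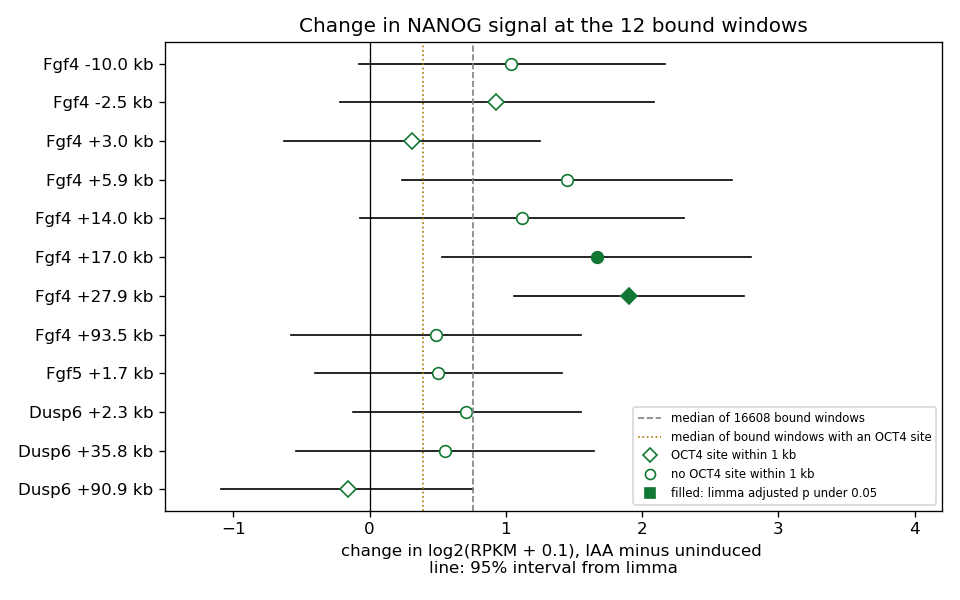
Change in log2(RPKM + 0.1), IAA minus uninduced, for the 12 bound windows with its 95% interval from limma, with diamonds for windows near an OCT4 site, filled symbols for limma adjusted p under 0.05, and vertical lines at 0 and at the medians of all bound windows (0.76) and of those near an OCT4 site (0.39). Fgf4 +27.9 kb and Fgf4 +17.0 kb are filled, at 1.90 and 1.67, and Dusp6 +90.9 kb lies at -0.16.

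The 12 bound members thus ran from -0.16 to 1.90 in log2 change, and 10 of them had a limma adjusted p between 0.0841 and 0.814. The 4 members near an OCT4 site held both ends of this range. Their median was 0.62, against 0.88 for the 8 members with no OCT4 site within 1 kb, and no test was made of this difference. In uninduced cells the order of mean RPKM was Dusp6 +2.3 kb (10.1), Fgf4 +27.9 kb (7.61), Dusp6 +90.9 kb (4.27), Fgf5 +1.7 kb (3.68) and Fgf4 +3.0 kb (3.39), with the first 2 closer than the spread between the replicates of Dusp6 +2.3 kb and the last 2 within 1 SD of each other. After IAA, Fgf4 +27.9 kb (28.9) stood above Dusp6 +2.3 kb (16.0), and both were above Fgf5 +1.7 kb (5.37).

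The loci ended clear of their limits. Just inside 100 kb, the last Fgf4 window was 89.6 kb from the gene, with 2.26 RPKM in uninduced cells and 3.22 RPKM after IAA, and the first outside was at 129.4 kb, with 1.89 and 2.27 RPKM. For Dusp6 the last inside was at 86.6 kb (4.27 and 3.80 RPKM) and the first outside at 190.7 kb (2.69 and 4.19 RPKM). For Fgf5 the last inside was at 43.6 kb and the first outside at 265.0 kb, each with 0.295 and 0.336 RPKM, which is 1 read in every library.

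The motif search used the 351 bases of each window on both strands. The SOX motif was found in 9 of the 13 members and in 76.7% of all bound windows, since a motif this short matches often. The octamer was found in 2 members, Fgf4 +3.0 kb and Fgf5 -43.6 kb, and in 6.12% of bound windows and 14.8% of those near an OCT4 site. The composite of a SOX motif, up to 4 bases and an octamer, which is the form OCT4 and SOX2 bind together, was found at Fgf4 +3.0 kb alone among the members and in 0.120% of bound windows. The NANOG core TAATGG was found in 6 members and in 20.9% of bound windows. The ESRRB motif matched 1 member and 3.99% of bound windows, and the KLF motif GGGNGTGGC matched 1 member, Fgf4 +3.0 kb, and 3.66% of bound windows. GC content ran from 42.2% to 57.5% in the bound members, against a mean of 46.5% over all bound windows.

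The windows with the pattern most like each gene's strongest window were sought among all bound windows by the Euclidean distance of log2(RPKM + 0.1) over the 4 libraries. For Fgf4 +27.9 kb there were only 2 within a distance of 0.5: a window 871 bp from a start of S100a1 (0.49, with a change of 1.45) and a window 523 bp from a start of AC122252.2 (0.50, with a change of 1.51). For Dusp6 +2.3 kb there were 135 within that distance, the nearest being windows at Gm49432 (0.14) and Plagl1 (0.15). For Fgf5 +1.7 kb there were 199, the nearest being windows at Map3k5 (0.13) and Yap1 (0.15).

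Across the wider pathway, taken as a list of 52 genes by role, 47 genes had a bound window within 100 kb and 165 bound windows were counted. Limma called 33 of them (20.0%) higher and 0 lower, next to 15.0% and 0.337% of all bound windows. At an unadjusted p under 0.05 the counts were 54 higher (32.7%) and 2 lower (1.21%), next to 33.1% and 0.861% of all bound windows, and limma-voom on recovered reads gave 31 higher and 0 lower. The median change over the list was 0.72, against 0.76 over all bound windows. Without the 12 members, 31 of 153 (20.3%) were higher, with the same median. After centring 1 window of the list (0.606%) was called higher by limma, Fgf4 +27.9 kb, and 2 (1.21%) were called lower, next to 0.283% and 1.19% of all bound windows.

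The counts by role that follow are limma calls before centring, next to 15.0% of all bound windows called higher. A window is counted here for every listed gene within 100 kb of it, and other genes may lie closer. Among ligands, 4 of 14 windows were higher, with a median of 1.08. These include the Fgf4 windows, which Fgf3 and Fgf15 share because the genes are neighbours. The other 2 belonged to Fgf8, a ligand of early development, whose strongest window changed by 1.30 (limma adjusted p = 0.0269). Among receptors 3 of 13 windows were higher, 2 at Fgfr4 and 1 at Fgfr1, while at Fgfr2 the median of 2 windows was -0.14 and neither passed the test.

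Among adaptors and exchange factors, which link receptors to RAS, 8 of 28 windows were higher, among them the strongest window of Grb2 (1.25, limma adjusted p = 0.0340) and of Gab1 (1.31, limma adjusted p = 0.0289). Among GTPases and their regulators 1 of 20 was higher, at Nras, and the median was 0.46. Among kinases 4 of 25 were higher, with a median of 0.51, and they included the only window of Mapk3, which encodes ERK1 (1.17, limma adjusted p = 0.0428).

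Among inhibitors, the role of Dusp6, 9 of 37 windows were higher, with a median of 0.73. All 3 windows of Spred1, an inhibitor of signalling from RAS to ERK, were called higher, with a median of 2.09. So were 3 of 9 at Spry2, a feedback inhibitor of receptor signalling, and the only window of Dusp7 (1.93, limma adjusted p = 0.0302), while 0 of 3 were at Dusp6. The strongest Spred1 window and the Dusp7 window were weak. Their means were 2.46 and 2.32 RPKM, below the median of 3.25 over bound windows. After centring, no inhibitor window was called higher. Among nuclear targets and effectors 6 of 36 were higher, with a median of 0.70. They included the strongest windows of Etv4 (1.65, limma adjusted p = 0.00527) and Elk4 (1.88, limma adjusted p = 0.00255), which encode ETS transcription factors, and 2 Fgf4 windows that also lie within 100 kb of Ccnd1.

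**Figure D4:**
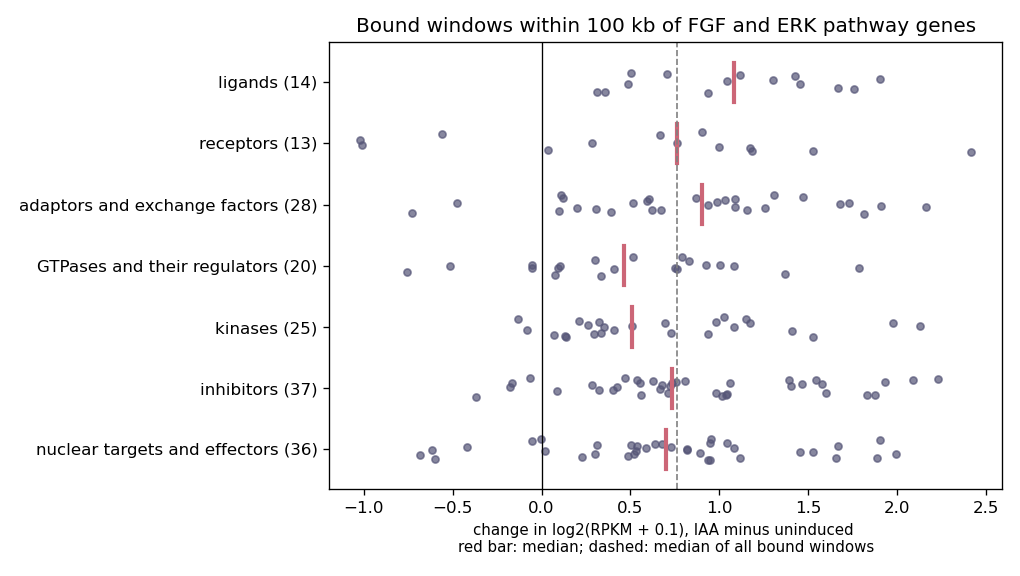
Change in log2(RPKM + 0.1), IAA minus uninduced, of each bound window within 100 kb of an FGF or ERK pathway gene, by role with the number of windows in brackets, red bars for medians and a dashed line at the median of all bound windows (0.76). Role medians run from 0.46 for GTPases and their regulators to 1.08 for ligands, and windows of every role spread over both sides of the dashed line.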

How the data were processed

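NANOG ChIP-seq was deposited for 4 libraries, grouped by their labels. The labels name the antibody as Bethyl A300-397A, and the antibody list in the methods names a different NANOG antibody. The authors aligned reads to mm10 with Bowtie2 (2.3.4.3), removed duplicates with SAMtools, called peaks with MACS2 on both conditions pooled, and computed the deposited RPKM with DiffBind. OCT4 sites and chromatin classes came from published data. The 2 libraries of a condition were separate immunoprecipitations, so p-values measure the spread between these. Limma draws each window's variance towards that of bound windows with similar mean signal. Its SEs, intervals and p-values therefore do not measure the spread of a window's own replicates alone. Fgf4 +14.0 kb and Fgf4 +5.9 kb had SEs of 0.61 and 0.62, though their IAA replicates differed by -1.78 and -0.08 (log2, replicate 2 minus 1).

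RPKM values were whole multiples of 1 read (100.0%, tolerance 0.001), which gave libraries of 8236968, 11674801, 19634763 and 5406307 reads (uninduced 1 and 2, IAA 1 and 2). Changes were tested with limma (lmFit, eBayes with trend, two-sided) on log2(RPKM + 0.1) over 16608 bound windows, with Benjamini-Hochberg adjustment at 0.05. Locus sums and shares had two-sided exact permutation tests. All windows within 100 kb of each gene are named. For other pathway genes, values are those of the bound window of highest mean RPKM, and 1 gene of the list is not reported by name here. Alternatives were pseudocounts of 0.01 and 0.5, other filters, centring, quantile normalization, no trend, a replicate block, voom, a 50 kb limit and leaving out each library. Merged reads, unadjusted p and the Fgf4 sum without its strongest window were chosen after seeing the data. The members and gene lists were chosen with earlier results of these data known. Annotation was GENCODE (mouse release 21), and coordinates are 1-based. The code was tested on synthetic reads with a spread set in advance. Limma recovered 87 of 200 windows changed 4-fold (43.5%, with 3 false calls) and 190 of 200 changed 8-fold (95%, with 5 false calls). A window without a call is therefore not shown to be unchanged. Software was Python 3.11.15, numpy 2.4.6, pandas 2.3.3, scipy 1.17.1, matplotlib 3.10.9, R 4.3.3 and limma 3.58.1.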

Additional observations from a re-analysis of the deposited data

How the results depend on the processing

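Of 180 alternative values for the 12 bound windows, 171 kept their direction and 9 turned, all 9 under another scaling. Many of the 180 could not turn, so this count does not measure robustness. The other filters, the replicate block and the fit without a trend left each change as it was (0.713 at Dusp6 +2.3 kb). Only centring and quantile normalization rescaled the libraries. Under centring, Dusp6 +35.8 kb went to -0.146, Fgf5 +1.7 kb to -0.195, Fgf4 +3.0 kb to -0.387 and Fgf4 +93.5 kb to -0.213, and the sums of Fgf5 and Dusp6 to -0.196 and -0.207. Under quantile normalization Dusp6 +2.3 kb went to -0.018, Dusp6 +35.8 kb to -0.187, Fgf5 +1.7 kb to -0.162, Fgf4 +3.0 kb to -0.362 and Fgf4 +93.5 kb to -0.332. The median change of the 12 windows, 0.82, was 0.126 under centring, 0.070 under quantile normalization, and 0.694 to 1.004 with a library left out. Limma's 2 higher calls became 1 under centring and 0 under quantile normalization or without a variance trend, where the adjusted p was 0.0541 at Fgf4 +27.9 kb and 0.0650 at Fgf4 +17.0 kb, and 0 to 4 with a library left out. Over all 16608 bound windows the 2493 higher and 56 lower calls of limma became 47 and 198 under centring, 0 and 1 under quantile normalization, and 157 and 0 without a trend. The 33 higher calls of the pathway list became 1, 0 and 0 under these settings and 0 to 78 with a library left out (20 without uninduced replicate 1, 78 without uninduced replicate 2, 0 without either IAA library), and its 0 lower calls became 2 under centring and 0 to 1 with a library left out. A fit without an IAA library assumes that the lone sample varies like the other group. Same-numbered libraries did not deviate together (correlation 0.005), and with the replicate number as a block the members called higher were 2 and those of the list 36. The cause of these changes was not tested. Depth limits the weak windows, where uninduced replicate 1 and IAA replicate 2 each gave as few as 3 reads at Fgf4.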
